A study of Homo sapiens with 6 samples.

Results

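The nuclear-encoded subunits of respiratory complexes II, III and IV and of ATP synthase were followed in U2OS cells that carry a knockout of MBTD1. The members were every gene row of the array table whose symbol begins with UQCR, COX4I, COX5, COX6, COX7, COX8 or ATP5, together with SDHA, SDHB, SDHC, SDHD and CYC1. This gave 49 of 34602 genes, of which 4 belong to complex II, 9 to complex III, 18 to complex IV and 18 to ATP synthase. The prefixes also take in a few relatives that are no subunits, such as pseudogenes and coupling factors. U2OS is a human osteosarcoma cell line. The study set 3 clones in which MBTD1 had been knocked out by CRISPR/Cas9, each described as inactivated, against 3 control clones, using 1 Illumina bead array for each clone. The control samples carry the title "control KO" and the description control clone, while the study design speaks of wild-type cells, so how they were derived remains unstated. All 6 clones were grown without treatment in DMEM with fetal bovine serum. MBTD1 is a chromatin protein that binds methylated histones within the TIP60/NuA4 complex, an acetyltransferase. The labels name no separate cultures, days or slides, so every p-value speaks only of the spread among these 6 arrays, which may be technical.

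Electrons from succinate enter the respiratory chain at complex II (succinate dehydrogenase), which also works in the citric acid cycle, and pass through ubiquinone to complex III (the cytochrome bc1 complex). Cytochrome c then carries them to complex IV (cytochrome c oxidase), where oxygen is reduced, and the proton gradient built by complexes III and IV turns the rotor of ATP synthase. Complex II is wholly nuclear-encoded, whereas complexes III, IV and ATP synthase join nuclear-encoded subunits with subunits made inside mitochondria, and tumour lines such as U2OS express the common, non-muscle forms of those subunits that exist in tissue variants.

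The values are background-corrected, quantile-normalized log2 intensities, and each difference is knockout minus control with a limma test adjusted by the Benjamini-Hochberg method over all 13145 genes above background on at least 3 of 6 arrays. Median intensities were between 84.7 and 87.2, and between 12982 and 13511 genes were above background on each array. These medians lay near the estimated background means of 81.7 to 84.2, so they say little of the brighter genes. For COX4I1, raw intensities of 5256 on knockout 1 and 4055 on control 1 became normalized values of 11.99 and 12.11. MBTD1 itself measured 5.17, 4.99 and 4.62 in the knockout clones and 5.06, 5.05 and 5.05 in the control clones. Its difference of -0.13 did not pass (limma adjusted p = 0.676, exact two-sided permutation p = 0.7, where 0.1 is the smallest p that 3 against 3 allows). An edit by CRISPR/Cas9 need not lower the transcript, and where the probes lie relative to the edit is not given, so the transcript does not check the labels. Of 6 mesenchymal and osteosarcoma markers 4 were above background on enough arrays to be tested (VIM, COL1A1, CD44 and SPARC), whereas COL1A2 was above background on 0 of 6 arrays and the osteoblast factor RUNX2 on 1 of 6. Vimentin (VIM) measured 11.04, 11.18 and 11.16 in knockout clones and 11.61, 12.15 and 11.76 in control clones. None of 5 blood and 5 muscle markers was above background on enough arrays, against 1 of 4 endothelial and 3 of 5 epithelial markers, and no marker of these lists passed limma's adjusted threshold (1 mesenchymal and 1 epithelial gene were lower at an unadjusted p under 0.05). The control arrays themselves differed: control 1 lay above control 2 by a median of 0.58 over the tested members, against a median of -0.02 over all tested genes.

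Of the 49 members 42 were tested. 6 rose in the knockout clones and 1 fell, which is 14.3% and 2.38% of those tested, while over all tested genes 1.57% passed, 1.2% as higher and 0.373% as lower. In RNA from a whole culture, fewer cells with a transcript and less of it in each cell cannot be told apart. The 6 were ATP5I, ATP5E, ATP5J2 and the epsilon pseudogene ATP5EP2 of ATP synthase, COX7B of complex IV and UQCRQ of complex III, and the one that fell was SDHB of complex II. The median difference over the 42 members was 0.44, against -0.02 over all tested genes, and 30 of 42 differences (71.4%) lay above 0, against 46.2% of all tested genes. The 3 knockout values lay wholly above the 3 control values for 22 members and wholly below them for 7, that is 52.4% and 16.7%, against 12.2% and 13.7% of all tested genes (25.9% in either direction). Since the members were chosen with earlier results of these data known, these shares are a description and no test of the list.

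Which members passed depended on the processing and on single arrays. No member passed with the default background fit, without the filter on dim genes, without control 3, or with the mean level of genes spanning at most 5000 bases as a covariate. That covariate was higher on every knockout array than on any control array, so it cannot be told apart from the knockout. Without control 1, 19 members passed as higher and 1 as lower. Over all genes, quantile normalization gave 158 higher and 49 lower calls, common-median scaling 556 and 32, and cyclic loess 249 and 39.

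The size of the differences varied by complex. Complex IV had the highest median difference, 0.85 over 11 tested members with a range of 0.04 to 1.14, and every one of these 11 differences was above 0. ATP synthase had a median of 0.57 over 18 members but the widest range, -0.67 to 1.79, with 12 differences above 0 and 6 below. Complex III had a median of 0.11 over 9 members (range -0.44 to 1.10, 5 above 0 and 4 below). Complex II had a median of -0.04 over its 4 members (range -0.56 to 0.23, 2 above 0 and 2 below). Groups that did not overlap were counted for 8 of 11 complex IV members, all higher, and for 15 of 18 ATP synthase members, 11 higher and 4 lower. They were counted for 3 of 9 complex III members, 2 higher and 1 lower, and for 3 of 4 complex II members, 1 higher and 2 lower. The share wholly higher and wholly lower was 72.7% and 0% in complex IV and 61.1% and 22.2% in ATP synthase. It was 22.2% and 11.1% in complex III and 25% and 50% in complex II, against 12.2% and 13.7% of all tested genes. Differences between complexes were not tested, because genes of 1 complex are no replicates. Scaling the arrays to a common median in place of quantile normalization gave complex medians of 0.034, 0.26, 1.20 and 0.72 for II, III, IV and ATP synthase, so the complex II median changed sign, as it did with cyclic loess, at 0.012. Without the filter on dim genes the order of complex IV and ATP synthase turned, with medians of 0.27 and 0.57. The 7 dim complex IV members then entered its median, while the differences of the 11 tested ones stayed the same. The short-span covariate left medians of 0.11 for complex IV, 0.063 for ATP synthase, 0.043 for complex II and -0.087 for complex III. With it COX4I1, COX5A and COX6A1 lay below 0. That covariate was 0.0709 to 0.0870 on knockout arrays and -0.187 to 0.0106 on control arrays. Its share and that of the knockout therefore cannot be told apart.

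**Figure D1:**
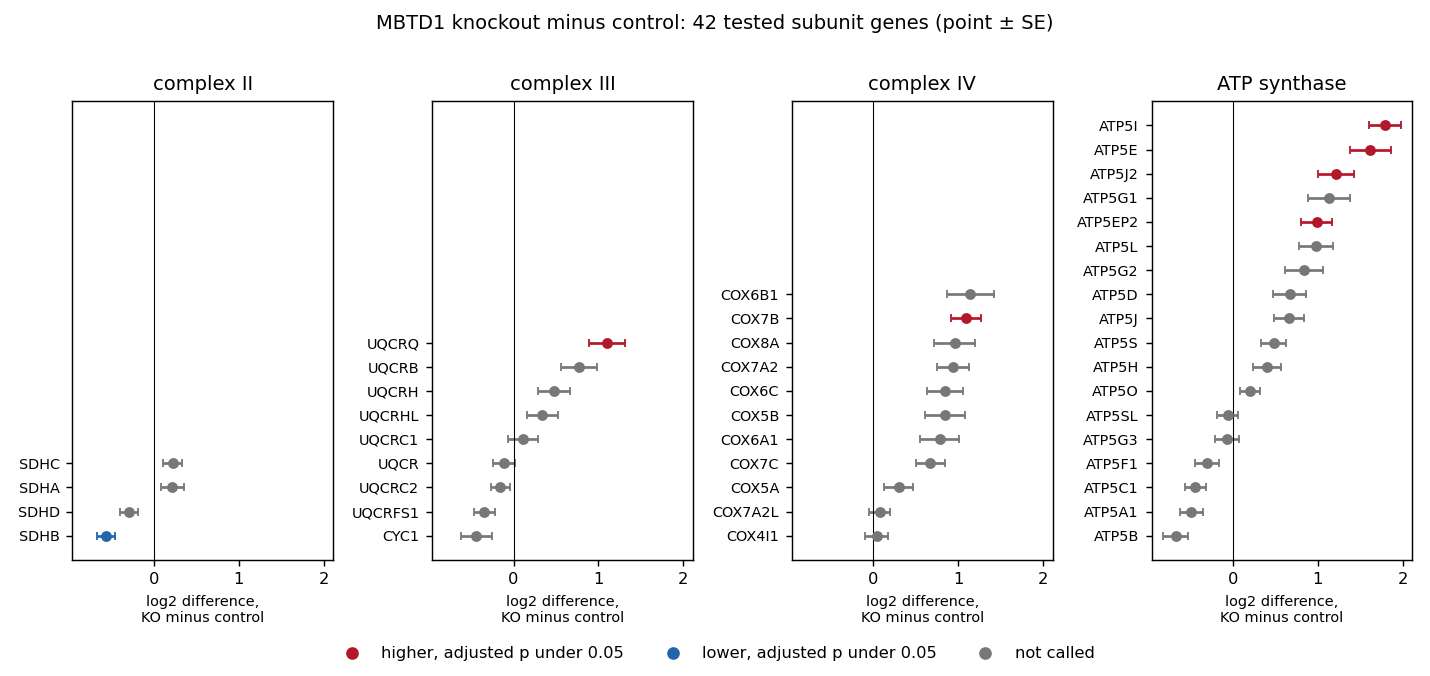
Log2 difference (knockout minus control, x axis) of each tested member with its standard error from limma, in 1 panel per complex with the genes on the y axis; red points passed the adjusted threshold as higher, blue as lower, and grey points did not pass. Complex IV lies wholly to the right of 0, between 0.04 and 1.14, while ATP synthase spans -0.67 to 1.79.

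The DNA just upstream of the members that passed is shown because these genes are encoded on separate chromosomes and moved in 2 directions. RefSeq promoter windows (GRCh38.p14, 250 bases before to 50 after the gene start) were at hand for 35 of 49 members and for 5 of the 7 that passed. The 250 bases upstream are printed in the direction of transcription, with capitals marking matches on either strand to the GC box GGGCGG bound by SP1 and KLF factors, the NRF1 core GCGCATGCG, the ETS core CCGGAAG bound by GABPA, or the YY1 core AAGATGGCG. These are chr4:674277-674526 (minus strand) for ATP5I, chr20:59032336-59032585 (minus) for ATP5E, chrX:77899218-77899467 (plus) for COX7B, chr5:132866392-132866641 (plus) for UQCRQ and chr1:17054033-17054282 (minus) for SDHB.
ATP5I: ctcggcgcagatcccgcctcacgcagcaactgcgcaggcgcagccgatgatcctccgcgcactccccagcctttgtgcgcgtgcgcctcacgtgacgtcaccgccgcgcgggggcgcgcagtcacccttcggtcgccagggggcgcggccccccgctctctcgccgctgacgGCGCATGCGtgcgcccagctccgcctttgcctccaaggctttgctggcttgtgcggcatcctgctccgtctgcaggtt
ATP5E: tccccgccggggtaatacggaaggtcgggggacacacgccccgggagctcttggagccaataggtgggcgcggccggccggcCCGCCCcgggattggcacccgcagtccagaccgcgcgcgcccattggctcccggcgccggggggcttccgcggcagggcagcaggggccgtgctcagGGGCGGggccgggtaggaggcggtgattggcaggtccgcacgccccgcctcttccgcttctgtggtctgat
COX7B: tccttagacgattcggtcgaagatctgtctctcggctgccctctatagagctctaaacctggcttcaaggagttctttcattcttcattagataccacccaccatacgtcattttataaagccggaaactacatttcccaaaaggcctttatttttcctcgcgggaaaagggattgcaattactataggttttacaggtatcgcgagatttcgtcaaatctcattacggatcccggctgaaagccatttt
UQCRQ: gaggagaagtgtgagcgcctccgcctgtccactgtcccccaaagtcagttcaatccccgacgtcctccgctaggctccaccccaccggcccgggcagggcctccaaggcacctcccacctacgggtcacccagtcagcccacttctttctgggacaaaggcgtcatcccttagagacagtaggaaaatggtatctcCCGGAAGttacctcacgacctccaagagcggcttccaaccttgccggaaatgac
SDHB: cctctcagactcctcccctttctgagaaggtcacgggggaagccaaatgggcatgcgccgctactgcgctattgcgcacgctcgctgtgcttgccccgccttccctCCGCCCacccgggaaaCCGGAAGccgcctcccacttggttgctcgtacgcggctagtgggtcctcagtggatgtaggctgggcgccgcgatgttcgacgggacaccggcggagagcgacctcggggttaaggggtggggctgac

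Of these stretches, ATP5E held 2 GC boxes, UQCRQ held 1 ETS core, SDHB held 1 GC box and 1 ETS core, ATP5I held 1 NRF1 core, and COX7B held no match to the 4 motifs. Their G and C content was 72% for ATP5I, 74.8% for ATP5E, 43.2% for COX7B, 60.4% for UQCRQ and 66.4% for SDHB. Over the whole windows of the 31 tested members that have one, the ETS core was found in 14 (45.2%), against 19.6% of 6930 tested genes and 10.7% of all 27305 genes with a window. Members were matched to windows by current symbol, but the 6930 tested genes by the array's symbol, so genes renamed since are missing from the 6930. The GC box was found in 18 (58.1%), against 71% of tested genes and 44.6% of all genes. The NRF1 core was found in 6 (19.4%), against 3.81% and 2.1%, but the same letters followed by a C were found in 2 (6.45%), against 2.31% and 1.36%. The YY1 core was found in 3 (9.68%), against 4.21% and 1.85%. A match describes these letters only, and the gene that fell shared a motif with genes that rose.

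ATP synthase held 4 of the 7 members that passed: the small membrane subunits ATP5I and ATP5J2, the central-stalk subunit ATP5E and the pseudogene ATP5EP2. ATP5I, subunit e, which helps ATP synthase form dimers, measured 8.62, 8.87 and 8.56 in knockout clones and 7.30, 6.56 and 6.83 in control clones. Every knockout value lay at least 1.26 above every control value, and this gap was wider than the 0.73 that separated the highest from the lowest control. ATP5I was 3.45-fold higher (log2 difference 1.79, SE 0.19, limma adjusted p = 0.00758). Its detection p-value was under 0.05 in only 1 of 3 control clones, and in 3 of 3 knockout clones. Its raw control intensities of 214, 172 and 173 nonetheless lay well above the estimated background means of 81.7 to 82.6 on those arrays. Several probes were averaged for ATP5I, and why the detection p-value was missed was not tested. ATP5J2, subunit f, measured 9.92, 9.92 and 10.06 in knockout clones and 9.23, 8.29 and 8.72 in control clones. It was 2.33-fold higher (log2 difference 1.22, SE 0.21, limma adjusted p = 0.0330), without overlap. ATP5L, subunit g, the partner of subunit e at the dimer interface, read 10.06, 10.05 and 10.12 in knockout clones and 9.55, 8.66 and 9.09 in control clones, and its difference of 0.98 just missed the threshold (limma adjusted p = 0.0521). ATP5I passed in 5 of 6 fits that left out 1 array, all but the one without control 3 (limma adjusted p = 0.0731), and ATP5J2 passed in 1 of 6. The median over these 3 membrane subunits was 1.22, the highest of the subunit groups formed from the members of all 4 complexes. The subunits USMG5 and C14orf2 lie outside the symbol rule and are not in this median, and their smaller differences are given further below.

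In the catalytic head, called F1, 1 of 5 subunits passed, and the 5 differences had both signs. ATP5E, the epsilon subunit of the central stalk, measured 9.80, 9.71 and 9.68 in knockout clones and 8.71, 7.59 and 8.04 in control clones. The knockout clones were close together (SD 0.06) and the control clones far apart (SD 0.56), and ATP5E was 3.07-fold higher (log2 difference 1.62, SE 0.24, limma adjusted p = 0.0213). It passed in 3 of 6 fits that left out 1 array. ATP5D, the delta subunit that sits beside epsilon, had a difference of 0.67 and no overlap, at 7.45 to 7.67 in knockout clones and 6.45 to 7.25 in control clones (limma adjusted p = 0.104). The catalytic beta subunit ATP5B lay the other way, at 11.62, 11.78 and 11.68 in knockout clones and 12.16, 12.65 and 12.29 in control clones. Its difference was -0.67 (SE 0.15, limma adjusted p = 0.0567), the lowest among all members. The alpha subunit ATP5A1 gave -0.49 (limma adjusted p = 0.0933) and the gamma subunit ATP5C1, the shaft of the rotor, gave -0.44 (limma adjusted p = 0.0927), both without overlap. The F1 group thus had 2 members wholly above and 3 wholly below their controls, with none of the 3 lower ones past the threshold. Before normalization the raw intensities of ATP5B were 4130, 3994 and 3824 in knockout clones and 4198, 4982 and 4147 in control clones. They barely missed overlap, with 4130 the highest knockout and 4147 the lowest control value. Those of ATP5A1 overlapped, at 1740 to 2152 in knockout clones and 1843 to 2195 in control clones. With common-median scaling the differences were -0.16 for ATP5B (limma adjusted p = 0.617), -0.08 for ATP5A1 and -0.29 for ATP5C1.

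The epsilon pseudogene ATP5EP2 measured 11.96, 12.03 and 11.97 in knockout clones and 11.39, 10.60 and 11.01 in control clones. It was 1.98-fold higher (log2 difference 0.98, SE 0.18, limma adjusted p = 0.0430). As its sequence is close to that of ATP5E, a probe named for one could bind transcripts of the other. They are therefore not to be read as 2 separate genes that rose, although the counts and shares of members given here include both.

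The rotor ring of ATP synthase is built from 1 protein, subunit c, that is encoded by several genes differing in their import signal. ATP5G1 measured 9.34, 9.26 and 9.46 in knockout clones and 8.83, 7.70 and 8.17 in control clones, a difference of 1.13 (limma adjusted p = 0.0589). ATP5G2 gave a difference of 0.84 without overlap (limma adjusted p = 0.0846). ATP5G3, whose raw intensities of 94.7 to 100.8 in knockout clones and 92.2 to 100.04 in control clones lay little above the array medians, gave -0.07 with overlap.

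The peripheral stalk, which holds the head still against the turning rotor, showed both directions and no call. ATP5J, coupling factor 6, gave a difference of 0.66 without overlap (limma adjusted p = 0.0892), ATP5H (subunit d) gave 0.40 with overlap, and ATP5O, the oligomycin sensitivity-conferring subunit, gave 0.20 without overlap. ATP5F1, subunit b, gave -0.31 without overlap, at 10.17 to 10.23 in knockout clones and 10.34 to 10.79 in control clones (limma adjusted p = 0.259). With common-median scaling ATP5F1 turned to 0.023. The remaining relatives were ATP5S at 0.48 (limma adjusted p = 0.127) and ATP5SL at -0.06 (limma adjusted p = 0.818), which turned to 0.0057 with common-median scaling.

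**Figure D2:**
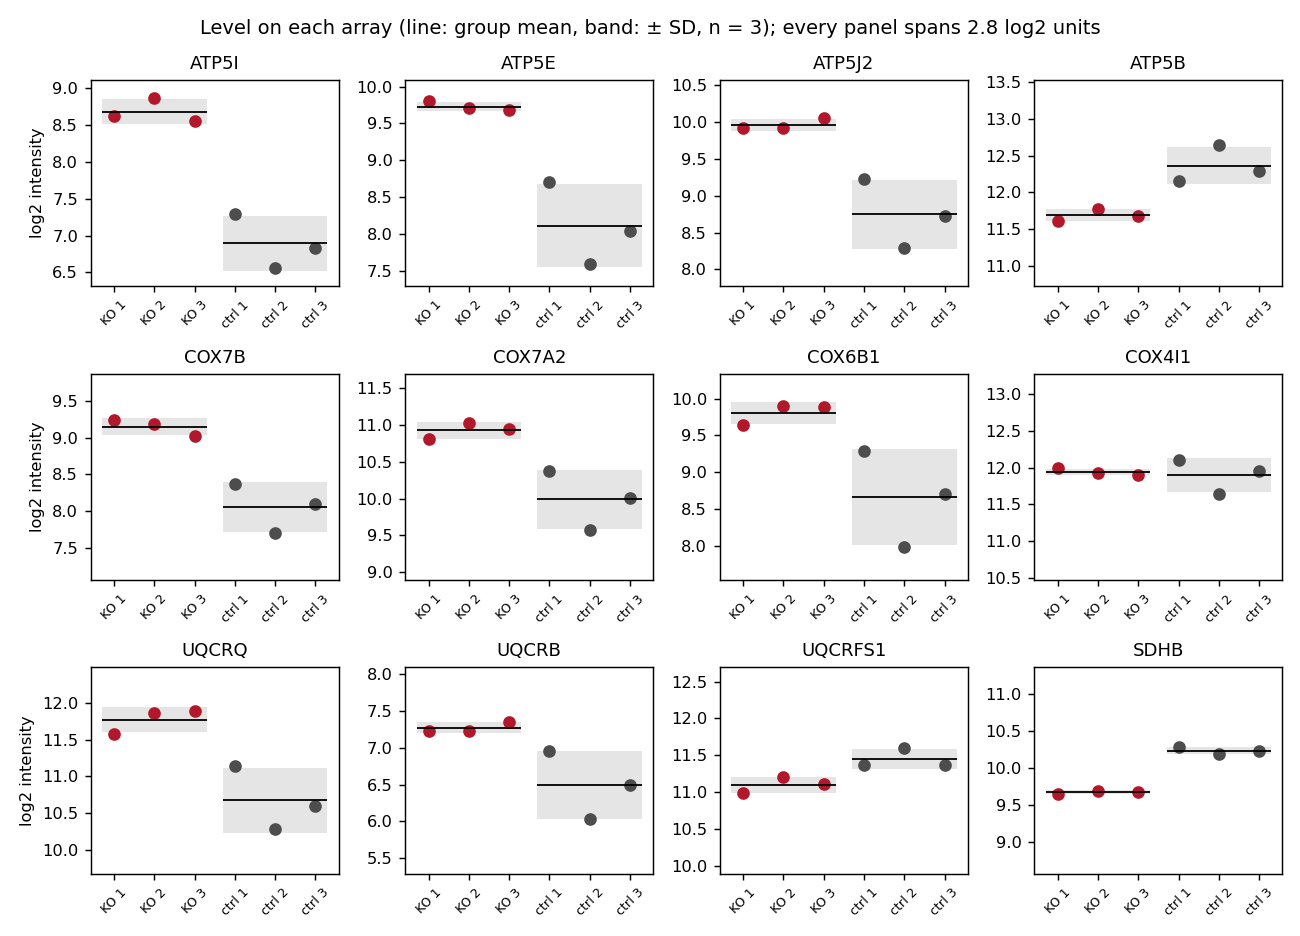
Normalized log2 intensity (y axis) of 12 members in each MBTD1 knockout clone and each control clone (x axis), 1 point per array with a line at each group mean and a band of ± 1 SD; every panel spans the same height in log2 units on its own range. ATP5I, ATP5E and COX7B sit above their controls with the control points spread out, ATP5B and SDHB sit below, and COX4I1 overlaps.

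In complex IV 1 of the 10 common subunits, COX7B, passed, and the other 9 did not, while 6 tissue-restricted forms were not above background on enough arrays to be tested. COX7B, a small subunit at the outside of the complex, measured 9.24, 9.19 and 9.02 in knockout clones and 8.37, 7.70 and 8.11 in control clones. It was 2.13-fold higher (log2 difference 1.09, SE 0.17, limma adjusted p = 0.0233), did not overlap, and passed in 2 of 6 fits that left out 1 array. COX6B1, which faces cytochrome c, had a slightly larger difference of 1.14, at 9.64, 9.89 and 9.88 in knockout clones and 9.29, 7.99 and 8.71 in control clones, but did not pass (SE 0.28, limma adjusted p = 0.0723). COX7A2, the common form of subunit 7A, measured 10.80, 11.02 and 10.95 in knockout clones and 10.38, 9.57 and 10.01 in control clones, a difference of 0.94 (limma adjusted p = 0.0521). Those 3 subunits had no overlap between groups, and control 2 was the lowest array for each.

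COX8A, COX6C, COX5B, COX6A1 and COX7C also had no overlap, with differences of 0.96, 0.85, 0.85, 0.78 and 0.67 and limma adjusted p between 0.0762 and 0.110. COX5A, which with COX4I1 is among the first nuclear-encoded subunits to join the core, gave 0.30 with overlap (limma adjusted p = 0.372). COX4I1 measured 11.99, 11.93 and 11.90 in knockout clones and 12.11, 11.65 and 11.95 in control clones, a difference of 0.04 (limma adjusted p = 0.905). COX7A2L, a related protein known for joining complexes III and IV into supercomplexes, gave 0.08 with overlap (limma adjusted p = 0.771). The median over the 10 common subunits was 0.85.

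The 7 members that were not tested all carry complex IV names. COX4I2 is a lung and hypoxia-linked form, COX6A2 and COX7A1 are heart and skeletal muscle forms, COX6B2, COX7B2 and COX8C are best known from testis, and COX6BP1 is a pseudogene. COX8C was above background in 2 of 3 knockout clones and 0 of 3 control clones, COX6A2 in 1 of 3 knockout clones and 0 of 3 control clones, and the other 5 on 0 of 6 arrays.

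In complex III 1 of 9 members passed, the small subunit UQCRQ. This ubiquinone-binding subunit, also called subunit 8, measured 11.58, 11.86 and 11.88 in knockout clones and 11.14, 10.28 and 10.60 in control clones. It was 2.14-fold higher (log2 difference 1.10, SE 0.21, limma adjusted p = 0.0440), without overlap, and passed in 2 of 6 fits that left out 1 array. UQCRB, another small subunit near the quinone site, measured 7.23, 7.22 and 7.35 in knockout clones and 6.96, 6.03 and 6.49 in control clones, a difference of 0.77 (limma adjusted p = 0.0916). UQCRH, the hinge protein that helps cytochrome c1 meet cytochrome c, overlapped between groups at a difference of 0.47 (limma adjusted p = 0.208). Its close copy UQCRHL gave 0.34 (limma adjusted p = 0.338), and probes could bind transcripts of either. UQCR, now UQCR11, gave -0.12 with overlap, and the median over the 4 small subunits was 0.62.

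The core of complex III contains the proteins that carry electrons and the large matrix-facing scaffold, and its median difference was -0.25, with no member past the threshold and 3 of 4 overlapping between groups. The Rieske iron-sulfur protein UQCRFS1 measured 10.98, 11.21 and 11.11 in knockout clones and 11.36, 11.60 and 11.37 in control clones. Its difference of -0.35 had no overlap and did not pass (limma adjusted p = 0.164), and with common-median scaling it turned to 0.10. CYC1, cytochrome c1, measured 9.80, 10.39 and 9.68 in knockout clones and 10.36, 10.31 and 10.53 in control clones, a difference of -0.44 with overlap (limma adjusted p = 0.229). The scaffold subunits UQCRC1 and UQCRC2 gave 0.11 and -0.16 with overlap. UQCRC1 was low in knockout 1, at 8.45, and higher in knockout 2 and 3, at 9.02 and 9.12, against 8.68, 8.81 and 8.76 in control clones.

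Complex II differed in 2 directions among its 4 subunits. SDHB, the iron-sulfur subunit that passes electrons from the flavin toward ubiquinone, measured 9.65, 9.69 and 9.68 in knockout clones and 10.28, 10.19 and 10.23 in control clones. Both groups were tight, at 9.67 ± 0.02 in knockout clones and 10.24 ± 0.05 in control clones (SD, n = 3 each), and the gap of 0.50 between the nearest clones was wider than the 0.09 spanned by the controls. SDHB was 1.48-fold lower in knockout clones (log2 difference -0.56, SE 0.10, limma adjusted p = 0.0410). Its raw intensities did not overlap either, at 965, 943 and 932 in knockout clones and 1243, 1126 and 1087 in control clones. The call was nonetheless near the threshold: it was lost in each of the 6 fits that left out 1 array, with limma adjusted p between 0.0526 and 0.193 and differences between -0.59 and -0.54, and with common-median scaling the difference was -0.31 (limma adjusted p = 0.252).

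SDHD, 1 of the membrane anchors, measured 8.04, 8.09 and 7.999 in knockout clones and 8.24, 8.38 and 8.37 in control clones, a difference of -0.29 (limma adjusted p = 0.178). The other anchor, SDHC, lay the other way without overlap, at 7.24, 7.27 and 7.45 in knockout clones and 7.09, 7.14 and 7.06 in control clones, a difference of 0.23 (limma adjusted p = 0.299). SDHA, the flavoprotein that oxidises succinate, measured 7.26, 7.64 and 7.54 in knockout clones and 7.14, 7.33 and 7.32 in control clones, a difference of 0.22 with overlap (limma adjusted p = 0.404). In 5 of the 42 tested members the gap between the groups was wider than the range of the control clones: SDHB, SDHC, SDHD, ATP5C1 and ATP5I. Of these, SDHB and ATP5I passed the test.

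**Figure D3:**
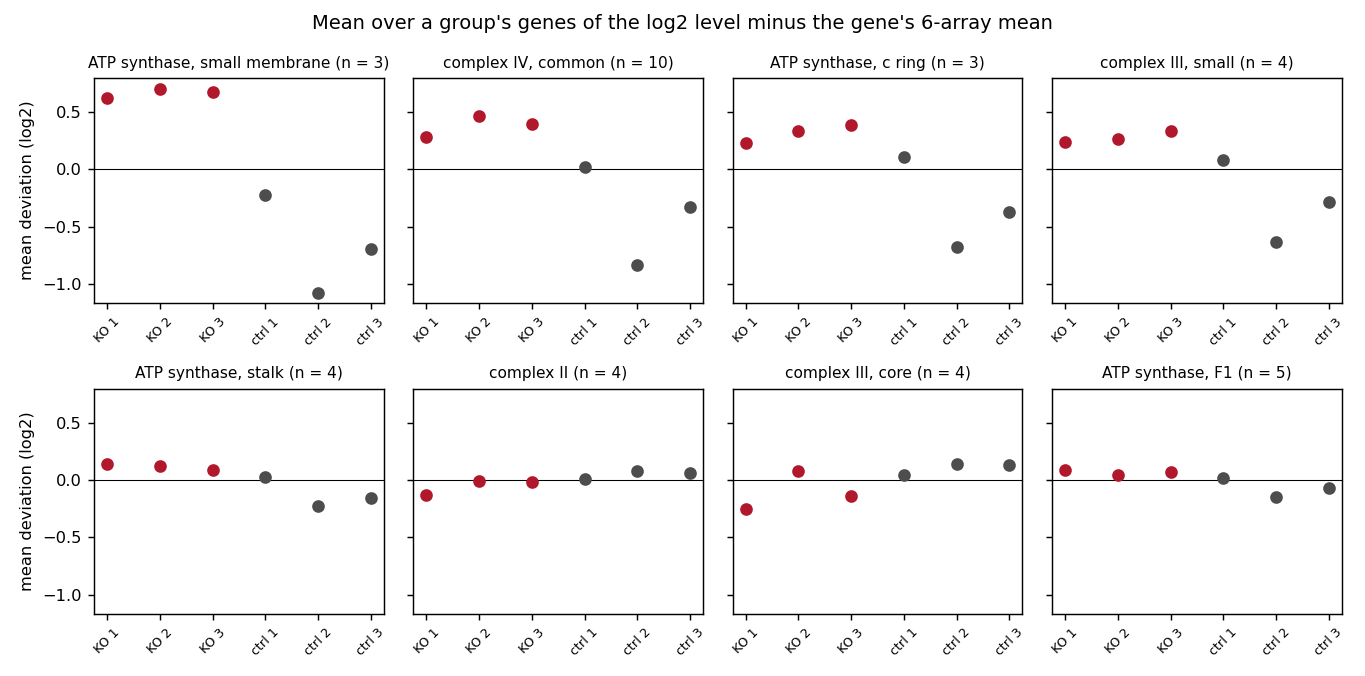
Mean log2 deviation from each gene's own mean (y axis) over the tested members of 8 subunit groups, 1 point for each MBTD1 knockout clone and each control clone (x axis). In the small membrane subunits of ATP synthase, whose median difference was 1.22, the control points are spread with control 2 lowest, and in the complex III core, whose median was -0.25, control 2 is the highest array.

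The order of the control arrays was shared by most members. Over the 42 tested members control 2 was the lowest control in 30, control 1 the highest in 31, and control 3 the middle one in 36. Control 2 was the lowest of all 6 arrays in 26 of the 42, and in 5 of the 13 members whose groups overlapped. In members with separate groups the extreme array on the control side is a control by selection. Among the 22 members that were wholly higher in the knockout clones, control 2 was the lowest control in 21. Control 1 was the highest control in 21 of them, and control 3 lay between the other controls in 21. Among the 7 members wholly lower in the knockout clones, control 2 was the highest of the 6 arrays in 5 and control 1 the lowest control in 6. The control clones spanned a wider range than the knockout clones for 33 of 42 members, and this share was not counted over all genes. The control 1 minus control 2 difference was 1.12 for ATP5E, 0.94 for ATP5J2, 0.86 for UQCRQ, 0.79 for ATP5EP2, 0.73 for ATP5I and 0.67 for COX7B, but 0.09 for SDHB. By complex its median was -0.09 for II, 0.33 for III, 0.81 for IV and 0.61 for ATP synthase. Genes that spanned at most 5000 bases and were no members had the same order of control arrays on average, but not of knockout arrays. Their mean deviations were 0.0798, 0.0870 and 0.0709 in knockout clones and 0.0106, -0.187 and -0.0614 in control clones. The members' were 0.167, 0.248 and 0.225 in knockout clones and 0.0160, -0.448 and -0.208 in control clones. The part of the short-span genes in the members' differences was not tested.

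To set the spread of the controls beside the knockout difference without using an array on both sides, control 1 minus control 2 was compared with the knockout mean minus control 3. Over the 42 members Pearson's r was 0.850 and Spearman's rho 0.871, against 0.525 and 0.419 over all 13145 tested genes. The signs matched for 34 of 42 members, against 8280 of the 13145 tested genes. By complex they matched for 1 of 4 members in II, 6 of 9 in III, 10 of 11 in IV and 17 of 18 in ATP synthase. These are correlations across genes measured on the same arrays, given as a description, since genes are no independent replicates.

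**Figure D4:**
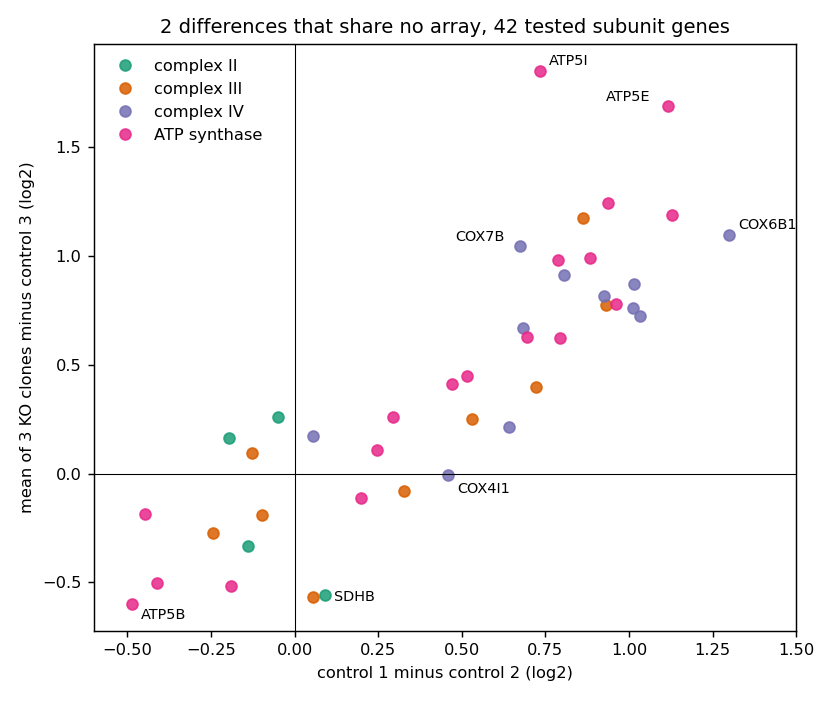
Control 1 minus control 2 (x axis, log2) against the knockout mean minus control 3 (y axis, log2) for the 42 tested members, coloured by complex; no array enters both axes. The points run from the lower left to the upper right (Pearson's r = 0.850), and SDHB lies near 0 on the x axis, at 0.09.

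Genes that surround these complexes were counted in the same fit, in which 1.2% of all tested genes passed as higher and 0.373% as lower, and 10.1% were higher and 10.3% lower at an unadjusted limma p under 0.05. Of 36 genes found on a list of assembly factors and associated proteins, 34 were tested, 1 rose (2.94%) and none fell. Besides assembly factors the list holds cytochrome c (CYCS), the inhibitor ATPIF1 and the subunits USMG5, C14orf2 and NDUFA4. USMG5 gave a difference of 0.67 (limma adjusted p = 0.109) and C14orf2 gave 0.50 (limma adjusted p = 0.179), both without overlap. NDUFA4 gave 0.46 with overlap (limma adjusted p = 0.313). In this list 9 were higher and 3 lower at an unadjusted p under 0.05, and the median difference was 0.08. There were 8 wholly higher (23.5%) and 3 wholly lower (8.82%), against 12.2% and 13.7% of all tested genes. The one that rose was COX17, the copper chaperone of complex IV, at 9.99, 10.04 and 9.98 in knockout clones and 9.25, 8.14 and 8.71 in control clones, a 2.47-fold difference (log2 difference 1.31, SE 0.24, limma adjusted p = 0.0410). As in most members, its control 1 lay well above control 2, by 1.11. Of the 14 tested citric acid cycle genes none passed limma's adjusted threshold, 5 were lower and 0 higher at an unadjusted p under 0.05, 3 differences (21.4%) lay above 0, against 46.2% of all tested genes, and their median was -0.24. Of 10 tested regulators of mitochondrial genes none passed, 4 were lower and 0 higher at an unadjusted limma p under 0.05, 3 differences (30%) lay above 0, and their median was also -0.24. In lists of this size a count of 0 calls is near the share over all genes. The differences were, for the promoter-binding factor YY1, -0.41 (limma adjusted p = 0.149) and, for the mitochondrial DNA factor TFAM, -0.52 (limma adjusted p = 0.160). The regulators NRF1, GABPA, PPARGC1A and PPARGC1B were not tested for want of signal, and the subunits encoded by mitochondrial DNA were not analysed here. Of 15 rows with LOC symbols described as similar to a member or as a pseudogene of one, 5 were tested and none passed. At an unadjusted limma p under 0.05, 2 of them were higher and 0 lower. UCRC, the older symbol of complex III subunit UQCR10, which lies outside the symbol rule, gave 0.47 with overlap (limma adjusted p = 0.225).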

How the data were processed

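Total RNA of 6 U2OS clones was measured on Illumina bead arrays, and groups were taken from the sample titles. The authors deposited a mean bead intensity per gene on a linear scale, not normalized, with a detection p-value, a standard error of the bead signal and a mean number of beads, per the file headers. The deposited log2 table equalled a quantile normalization of the same log2 intensities to within 4.99e-09. Per the submitters' processing notes, lumi and limma were used, with no version stated.

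From the intensities, the background was estimated from detection p-values by normexp on the 27316 genes whose detection p-value was a whole multiple of 1 in 770 (within 0.001 of a step) on all 6 arrays. An offset of 16 was added, log2 taken and arrays quantile-normalized (limma 3.58.1, R 4.3.3). This restricted fit was taken up once the default one was known to call 0 genes, as the default put the background SD at 114 to 164 intensity units, the restricted fit at 3.08 to 3.77. The 92 spike-in controls were left out of 34694 table entries. Genes with a detection p-value under 0.05 on at least 3 arrays (13145) were tested, the 3 knockout against the 3 control arrays, with lmFit and eBayes, Benjamini-Hochberg adjustment and a threshold of 0.05. Several probes of some genes had been averaged before deposit. The number of arrays limits the precision.

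The members, lists and motifs were chosen with earlier results of these data known. All members that could be tested are named. The NRF1 motif was shortened by 1 letter after a first count, and both counts are given. The fit was tested on simulated data. Alternatives covered background correction, offset, normalization, the filter, the deposited log2 values, a trended robust variance, a replicate block, single arrays left out, and a covariate from genes of at most 5000 bases, which was chosen after seeing the data in place of one from short proteins, for which lengths were not at hand. All 49 members matched the RefSeq gene table (GRCh38.p14).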

Additional observations from a re-analysis of the deposited data

How the results depend on the processing

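Over 42 members and 17 alternatives, 711 differences were computed: 585 kept direction and side of the threshold, 71 kept direction but were no longer past it, 41 moved past it and 14 changed sign. 30 members never changed sign. Calls over all genes (158 higher, 49 lower) and over the members (6 higher, 1 lower) moved as follows, with all genes given first as higher and lower. The default background fit gave 0 and 0 (2260 at an unadjusted limma p under 0.05), members 0 and 0, and an ATP synthase median of 0.38. No background correction gave 44 and 20, members higher 1; an offset of 50 gave 42 and 19, members higher 1; the deposited log2 values gave 44 and 20, members higher 1. Common-median scaling gave 556 and 32, members 19 and 0, medians of 0.034 (II), 0.26 (III), 1.20 (IV) and 0.64 (all members), and signs turned for ATP5F1 (0.023), ATP5SL (0.0057) and UQCRFS1 (0.10). Cyclic loess gave 249 higher, members 11 and 0, complex II median 0.012. Without a filter 1 and 3 genes and 0 and 0 members passed, with medians of 0.27 (IV) and 0.23 (all members). Both medians then included the 7 dim complex IV members. The stricter filter gave 280 and 81, members lower 2, complex III median -0.0033; the trended robust variance gave 243 higher. The short-span covariate, added after seeing the data, gave 0 and 0 (578 at an unadjusted limma p under 0.05), members 0 and 0, and medians of 0.043 (II), -0.087 (III), 0.11 (IV), 0.063 (ATP synthase) and 0.056 (all members), with ATP5F1 0.067, ATP5O -0.018, COX4I1 -0.33, COX5A -0.23, COX6A1 -0.026, UQCRH -0.087 and UQCRHL -0.074. That covariate was higher on every knockout array than on any control array, so it cannot be told apart from the knockout. The cause of these moves was not tested. The planned short-protein covariate was not run.

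With single arrays left out, all genes ranged from 0 to 463 higher and 0 to 115 lower, members from 0 to 19 higher and 0 to 1 lower, and medians from -0.091 to -0.010 (II), -0.018 to 0.21 (III), 0.57 to 1.07 (IV), 0.40 to 0.71 (ATP synthase) and 0.28 to 0.56 (all members). Without control 3 no gene passed (1919 at an unadjusted limma p under 0.05); members higher and lower were 4 and 0 without knockout 1, 1 and 0 without knockout 2 or knockout 3, 19 and 1 without control 1, and 2 and 0 without control 2. Signs turned for COX7A2L without knockout 1 (range -0.0073 to 0.13), UQCRC1 without knockout 3 (-0.018 to 0.31), ATP5G3 without control 1 (-0.16 to 0.033) and COX4I1 without control 2 (-0.086 to 0.14).

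The labels give same-numbered arrays nothing in common but a number. Their deviations correlated at 0.0656, 0.0153 and 0.0187, against -0.0713 to 0.0620 for pairs with unlike numbers. These values cannot show whether such arrays shared a day, slide or culture. With the number as a replicate block 14 genes were lower, and 3 members were higher (ATP5E, ATP5I and COX7B) and 0 lower.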
